A study of Mus musculus with 12 samples.

Results

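Plau, Plat, Plaur, Serpinb2, Serpine2 and Slpi are the plasminogen activation and serine protease inhibitor genes described here, 6 of the 35080 gene names on the array. They were chosen by gene name, and each had 1 probe of the 55681. The series asked how macrophage ABHD5 silencing changed gene expression in the macrophages and in tumour cells exposed to them. It held 12 arrays of total RNA in 4 groups of 3. The first pair of groups was RAW264.7, a mouse macrophage-like line, carrying either the PLKO vector alone (control) or a short hairpin RNA against ABHD5 (ABHD5-KD, knockdown). The second pair was CT-26, a mouse colon carcinoma line, primed by control RAW cells (control-primed) or by ABHD5-KD RAW cells (knockdown-primed). The CT-26 cells themselves were not described as carrying a hairpin. The sources used here do not state how priming was done, whether RAW cells were removed before RNA was extracted, how many hairpins or clones were used, or whether the 3 samples of a group were separate cultures. The p-values therefore measure only the spread between these samples, which may be technical.

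Plasminogen is a circulating zymogen that urokinase (Plau) or tissue plasminogen activator (Plat) cleaves to plasmin, a serine protease that degrades fibrin and matrix proteins. The urokinase receptor (Plaur) is a lipid-anchored protein that holds urokinase at the cell surface, where macrophages and invading tumour cells use it. Serpins such as plasminogen activator inhibitor 2 (Serpinb2) and protease nexin 1 (Serpine2) inhibit these activators by trapping them in a covalent complex, whereas Slpi is a small WAP-domain inhibitor of leukocyte elastase and related proteases.

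Promoter sequence was held for 4 of the 6 genes. The 3 of those that rose in RAW264.7 cells are shown, a choice that follows their change in these data. The window of the fourth gene, Serpine2, is described below without its letters. Each window shown is the 250 bases before the RefSeq start site in build GRCm38.p6, read 5′ to 3′ on the gene's strand. Capitals are on matches to the AP-1 motif TGANTCA. Both strands were searched, and the motif can match both at the same place.
Plaur, chr7:24462233-24462482, plus strand: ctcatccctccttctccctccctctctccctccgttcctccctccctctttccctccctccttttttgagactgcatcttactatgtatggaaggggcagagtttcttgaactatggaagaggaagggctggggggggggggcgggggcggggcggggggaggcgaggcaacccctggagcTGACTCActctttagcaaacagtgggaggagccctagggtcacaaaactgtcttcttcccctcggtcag
Serpinb2, chr1:107511173-107511422, plus strand: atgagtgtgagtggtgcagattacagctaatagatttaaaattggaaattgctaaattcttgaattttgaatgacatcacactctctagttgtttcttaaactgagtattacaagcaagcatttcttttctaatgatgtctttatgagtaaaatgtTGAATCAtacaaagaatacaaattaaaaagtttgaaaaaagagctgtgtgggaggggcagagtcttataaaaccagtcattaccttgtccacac
Slpi, chr2:164356508-164356757, minus strand: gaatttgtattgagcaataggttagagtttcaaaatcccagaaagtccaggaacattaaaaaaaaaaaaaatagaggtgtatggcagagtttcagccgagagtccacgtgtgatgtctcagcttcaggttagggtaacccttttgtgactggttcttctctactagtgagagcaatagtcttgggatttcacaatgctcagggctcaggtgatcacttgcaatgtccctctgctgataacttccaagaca
The Plaur window held 1 match, TGACTCA, that began 69 bases before the start. The Serpinb2 window held 1 match, TGAATCA, that began 94 bases before the start, and a second annotated start of Serpinb2 put the same letters 181 bases before it. The Slpi window held none, nor did the fourth window, that of Serpine2, which had a GC content of 78.8% against 59.6% for Plaur, 42% for Slpi and 32.4% for Serpinb2. Of 32851 promoter windows of this length, 6.75% held the AP-1 motif. The NF-kB motif (GGG, any 5 bases, CC) had 2 overlapping matches in the Plaur window, 2 matches in the Serpine2 window and none in the other windows, and 45.8% of all windows held it. The Ets motif ACCGGAAGT was in none of them and in 0.804% of all windows. These are matches of letters, and no binding was measured.

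The probe positions below are those of the array files, in build mm9; exon and UTR annotation of that build was not used here. The Plau probe lies at chr14:21662242-21662301 (plus), the Plat probe at chr8:23892531-23892590 (plus) and the Plaur probe at chr7:25260569-25260628 (plus). Those of Serpinb2 and Slpi lie at chr1:109422046-109422105 (plus) and chr2:164179849-164179908 (minus). The Serpine2 probe spans chr1:79793476-79796093 (minus), 2618 bases for a 60-base probe, so it joins stretches that are apart in the genome. The Plat and Serpine2 probe sequences are shown because no promoter of Plat was held and because the Serpine2 probe crosses such a join. Read in triplets from its first base, the Plat probe reaches its first stop triplet, in capitals, at base 46.
Plat probe: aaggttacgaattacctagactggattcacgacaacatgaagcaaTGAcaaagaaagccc
Serpine2 probe: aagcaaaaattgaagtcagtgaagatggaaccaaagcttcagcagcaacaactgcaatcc

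Values are log2 signals relative to the array's 75th percentile, so a level of 0 equals that percentile, and levels were compared between arrays for the same probe only. "Well above background" is the scanner software's own call. It was made for 56.5% and 57.8% of spots on RAW264.7 control replicates 1 and 2, which shared slide 1, and for 69.0% to 73.0% on control replicate 3 and the knockdown arrays, which shared slide 2. All CT-26 arrays were on slide 3, with 68.3% to 77.3% after control priming and 59.2% to 66.9% after knockdown priming. The lowest level that counted as well above background was -4.80 and -4.60 on the slide 1 arrays. It was -6.77 to -6.32 on the slide 2 arrays, so the call could be made there at lower levels. Replicates correlated at 0.974 to 0.991 across probes. Abhd5 itself read 1.38, 1.93 and 1.52 in control and 0.25, 0.23 and 0.39 in knockdown RAW264.7 cells, a change of -1.32 ± 0.20 (SE, limma adjusted p = 0.00346), and -1.23 on slide 2 alone (limma adjusted p = 0.0195). Its limma adjusted p was 0.0556 with the slide as a block. Those values are of its brightest probe. In a fit with every probe a feature, its other tested probes changed by -1.30 (limma adjusted p = 0.0157) and -0.78 (limma adjusted p = 0.0759, not called). All 12 macrophage markers were well above background on every RAW264.7 array. On the CT-26 arrays 8 of 10 epithelial markers were, but E-cadherin (Cdh1) was on none and Epcam on none of the knockdown-primed arrays. RAW264.7 arrays also had 4 to 9 of these 10 markers well above background, at a summed linear level of 1.83 to 3.60 against 27.3 to 37.6 on the CT-26 arrays. All 6 mesenchymal markers were well above background on every CT-26 array. RAW264.7 arrays had 4 to 5 of these 6 well above background, at a summed linear level of 46.0 to 60.7 against 125 to 170 on the CT-26 arrays. By gene, the control RAW264.7 minus control-primed CT-26 difference was -0.50 for Vim and -0.33 for Thy1, the latter not called. For Col3a1, Pdgfrb, Col1a1 and Col1a2 it was -6.46, -7.25, -8.91 and -9.59.

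In knockdown RAW264.7 cells 5 of the 6 genes rose. With Serpinb2 left out, the rises ran from 2.45-fold for Plau to 19.7-fold for Slpi. Serpinb2 was well above background on no control array and on every knockdown array, so its fold has only a lower bound, 13.9. In the same comparison 7.94% of 25459 genes tested were called higher and 14.9% lower (2021 and 3781 genes), at a limma adjusted p under 0.05. That split was 2442 higher and 1320 lower when arrays were centred on their median. In the fit blocked by slide, 3 of the 6 genes were called, Plat, Serpinb2 and Slpi. The total over all genes was then 1166, 894 higher and 272 lower. Slide 1 held control arrays only, so the blocked RAW264.7 changes set the knockdown arrays against control replicate 3 alone. The arrays of the 2 groups did not overlap for any of the 6 genes, 5 of them higher and Serpine2 lower. Over all genes tested 52.2% did not overlap, 12.5% higher and 39.7% lower. The median change of all genes tested was -0.30 on the log2 scale, and that of the 6 genes was 2.44. Because these are bulk samples, a change in the number of expressing cells and one in RNA per cell cannot be told apart.

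**Figure D1:**
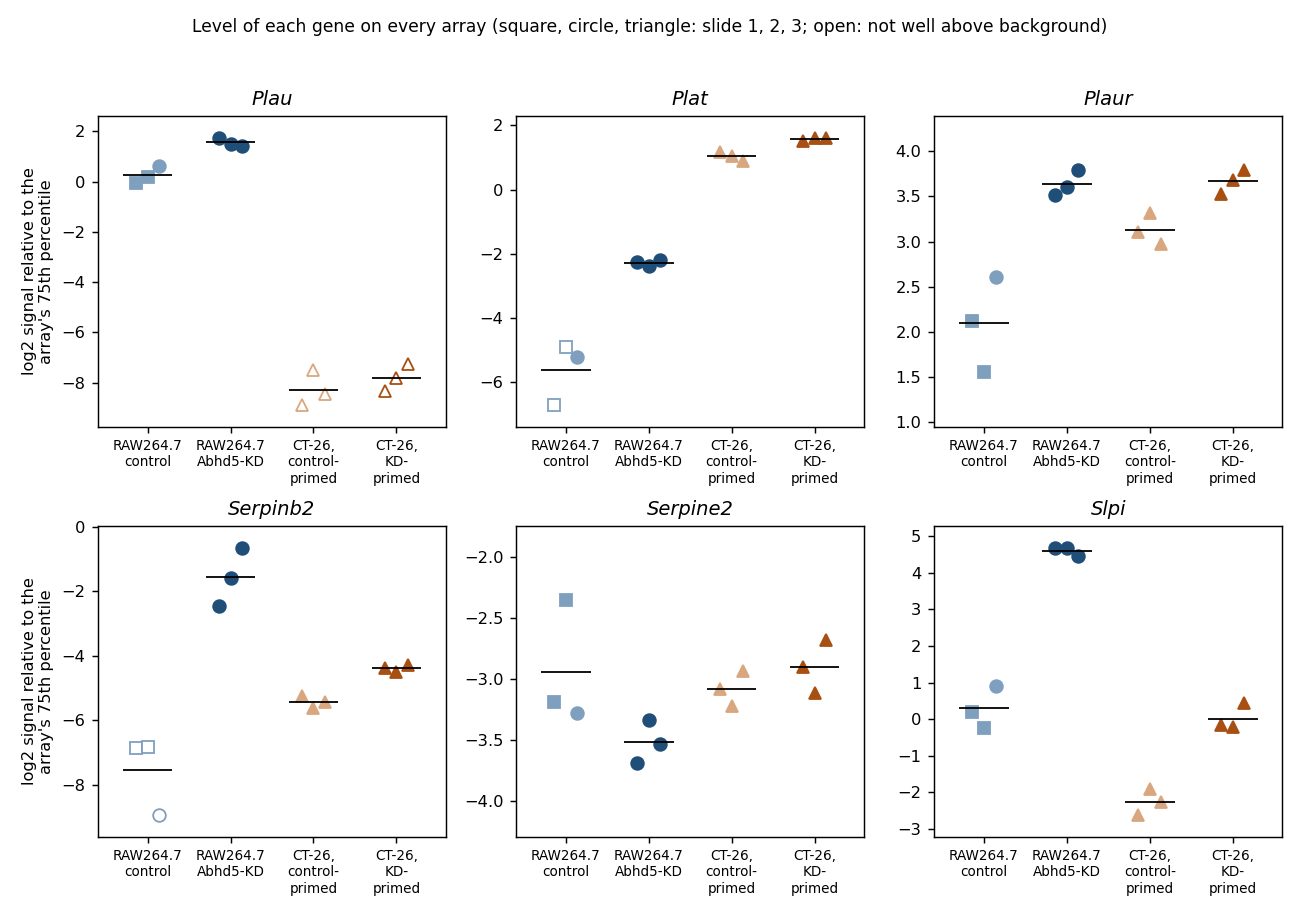
Level of each gene on every array (y axis, log2 signal relative to the array's 75th percentile; x axis, the 4 groups of 3), with horizontal lines for group means, symbols for slides and open symbols for spots not well above background. Plau was well above background in RAW264.7 cells only, Plat was highest in CT-26 cells, and Slpi and Serpinb2 were highest in knockdown RAW264.7 cells.

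Plau, the urokinase gene, read -0.04, 0.20 and 0.64 in RAW264.7 control cells and 1.75, 1.51 and 1.42 in knockdown cells. All 3 knockdown arrays lay above all 3 controls, and the highest control was replicate 3, the only control on the knockdown slide. The change was 1.29 ± 0.22 (SE, n = 3 per group, 95% interval 0.79 to 1.80, limma adjusted p = 0.00639). Against the slide 2 control alone it was 0.92, with a limma adjusted p of 0.113 with the slide as a block and 0.0631 on slide 2 only, so the call did not hold there.

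Plat, the tissue-type activator, read -6.71, -4.90 and -5.22 in control cells, where only replicate 3 was well above background, and -2.25, -2.37 and -2.19 in knockdown cells. Control replicate 2 read higher than replicate 3, but on slide 1, where that call needed a higher level. The knockdown arrays lay close together and far above every control array. The change was 3.34 ± 0.41 (SE, 10.1-fold, limma adjusted p = 0.00125). It was 2.95 with the slide as a block (limma adjusted p = 0.0243) and 1.87 after normexp, another background correction (limma adjusted p = 0.000187). The raw signals behind these levels were 25.9 to 69.1 in control and 585 to 750 in knockdown cells, so the size of this rise rests on dim control spots.

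Plaur, the receptor gene, read 2.12, 1.55 and 2.61 in control cells and 3.52, 3.605 and 3.79 in knockdown cells. The lowest knockdown array was above the highest control, again replicate 3. The change was 1.54 ± 0.27 (SE, 2.92-fold, limma adjusted p = 0.00705). It was 1.03 with the slide as a block, with a limma adjusted p of 0.116, and on slide 2 alone the same 1.03 had a limma adjusted p of 0.0406.

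Serpinb2, the plasminogen activator inhibitor 2 gene, read -6.87, -6.85 and -8.95 in control cells, none well above background, and -2.45, -1.59 and -0.65 in knockdown cells, all well above it. The knockdown replicates spread more widely than those of the other 5 genes but stayed clear of the controls. The fold was at least 13.9, with each control array put at the lowest signal that counted as well above background there, or at the probe's own reading where that was brighter. The fitted change was 5.99 ± 0.62 (SE, limma adjusted p = 0.000437), which depends on control signals that were not well above background. It was 7.38 with the slide as a block (limma adjusted p = 0.000229) and 3.19 after normexp (limma adjusted p = 0.000227).

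Slpi read 0.20, -0.23 and 0.92 in control cells and 4.67, 4.66 and 4.45 in knockdown cells. All 6 arrays were well above background, the knockdown arrays lay close together, and they stood apart from every control array. The change was 4.30 ± 0.28 (SE, 19.7-fold, limma adjusted p = 4.28e-05), and with the slide as a block it was 3.68 (limma adjusted p = 0.000219).

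Serpine2, the protease nexin 1 gene, read -3.19, -2.35 and -3.28 in control cells and -3.69, -3.33 and -3.53 in knockdown cells. The groups did not overlap, but the nearest arrays were only slightly apart and control replicate 2 alone stood high. The change was -0.58 ± 0.27 (SE, 95% interval -1.19 to 0.03) and did not pass the test (limma adjusted p = 0.127). The blocked value was -0.24. The interval includes 0.

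Among the 12 macrophage markers 3 rose in the same comparison, the surface receptor gene Adgre1 by 2.86, Lyz2 (lysozyme) by 1.88 and Cd53 by 0.84 on the log2 scale, and none fell. The summed linear level of the 12 markers ranged from 293 to 331 in control and from 311 to 353 in knockdown cells, in units of the array's 75th percentile. The granule gene Camp, 1 of 4 neutrophil markers tested, rose by 2.23. Of these 4 genes Adgre1 passed with the slide as a block (3.37, limma adjusted p = 0.000171) and Lyz2, Cd53 and Camp did not. The part of these shifts in the changes of the 6 genes was not tested.

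In CT-26 cells 2 of the 5 genes that could be tested rose after knockdown priming, Slpi by 4.83-fold and Serpinb2 by 2.07-fold, and none fell. Over 24996 genes tested 3.15% were called higher and 3.21% lower. The 2 groups of arrays did not overlap for 4 of the 5 genes, all higher, beside 36.2% of all genes tested, 25.1% higher and 11.1% lower. The median change was 0.54 for the 5 genes and 0.11 for all genes tested. All 6 arrays were on the same slide.

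Slpi read -2.61, -1.91 and -2.25 in control-primed cells and -0.17, -0.22 and 0.44 in knockdown-primed cells. Every knockdown-primed array was above every control-primed array, with a gap larger than the spread within either group. The change was 2.27 ± 0.24 (SE, n = 3 per group, 95% interval 1.74 to 2.81, limma adjusted p = 0.0033). It stayed called without any 1 of the 6 arrays, with values from 2.06 to 2.45, and was 1.65 on signals not scaled between arrays (limma adjusted p = 0.0144).

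Serpinb2 read -5.25, -5.61 and -5.45 in control-primed cells and -4.38, -4.49 and -4.29 in knockdown-primed cells. The groups did not overlap and each was tight, though all 6 spots were dim, with raw signals of 75 to 145. The change was 1.05 ± 0.16 (SE, limma adjusted p = 0.0136). The call was lost without control-primed replicate 2 (0.96, limma adjusted p = 0.059), without control-primed replicate 3 (1.04, limma adjusted p = 0.0831), without knockdown-primed replicate 3 (0.999, limma adjusted p = 0.051) and on unscaled signals (0.42, limma adjusted p = 0.174).

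Plaur read 3.104, 3.31 and 2.98 in control-primed cells and 3.53, 3.68 and 3.79 in knockdown-primed cells, with no overlap. Its change of 0.54 ± 0.16 (SE, 95% interval 0.17 to 0.90) did not pass the test (limma adjusted p = 0.0747). Plat read 1.17, 1.04 and 0.91, then 1.50, 1.62 and 1.62. The later group was higher on every array, and the change of 0.54 ± 0.15 (SE, 95% interval 0.20 to 0.88) did not pass (limma adjusted p = 0.0622). On signals not scaled between arrays the changes were -0.09 for Plaur and -0.08 for Plat, the opposite direction, while the median of all genes tested was -0.51.

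Serpine2 read -3.08, -3.22 and -2.94 in control-primed and -2.90, -3.11 and -2.68 in knockdown-primed cells, and the groups overlapped. Its change was 0.18 ± 0.17 (SE, 95% interval -0.20 to 0.57, limma adjusted p = 0.486). Plau was not well above background on any of the 6 CT-26 arrays, with readings from -8.90 to -7.28, and was not tested there.

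**Figure D2:**
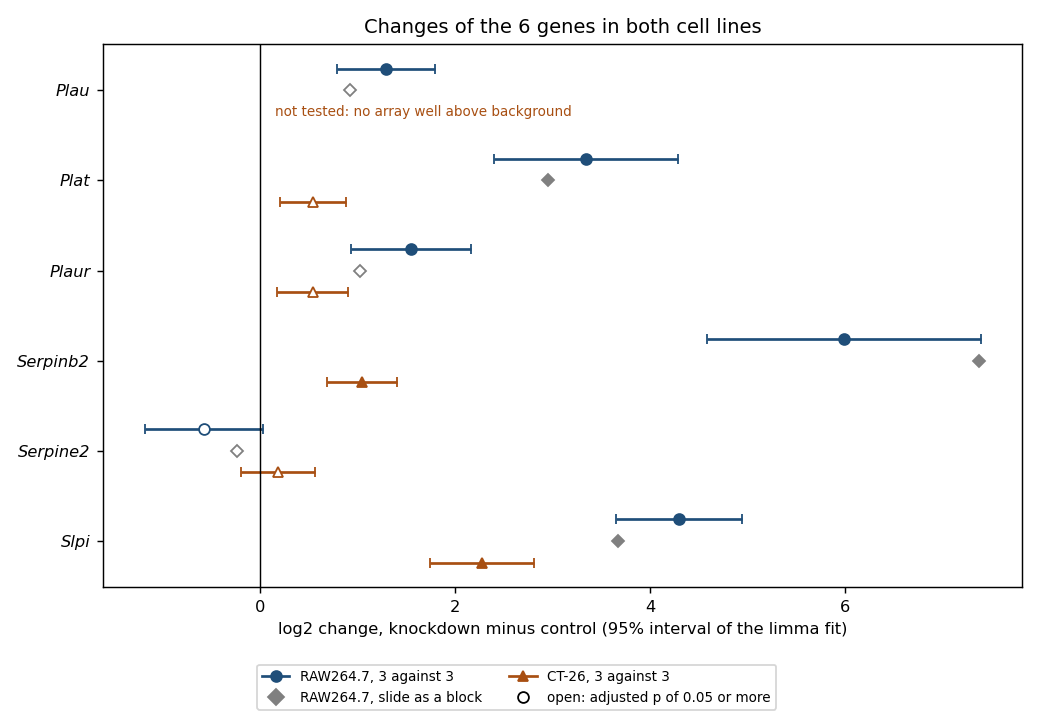
Change of each gene (x axis, log2, knockdown minus control) in RAW264.7 cells, in RAW264.7 cells with the slide as a block, and in CT-26 cells, with 95% intervals of the fit and filled symbols for limma adjusted p under 0.05. Serpinb2 and Slpi have filled symbols in both lines; Plau and Plaur are filled in RAW264.7 cells only without the block.

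The macrophage markers were also read on the CT-26 arrays, beside these changes. Of the 12, 8 were well above background on every CT-26 array. All 12 were called higher in control RAW264.7 than in control-primed CT-26 cells, beside 45.7% of all genes tested. Their median difference was 7.59 on the log2 scale, beside 0.40 for all genes tested. Adgre1 and Spi1 (PU.1) were well above background on no CT-26 array, and Laptm5 and Tyrobp on no knockdown-primed array, where the lowest level that counted as well above background was higher (-6.01 to -5.00) than on the control-primed arrays (-7.23 to -6.22). Their summed linear level was 55.2 to 61.0 in control-primed and 56.8 to 75.1 in knockdown-primed cells, and 1 of 9 tested changed, Cd68, which fell by 0.83, a call lost with no filter on dim probes and with the mean over probes. The part of these markers in the changes of Slpi and Serpinb2 was not tested. Of the 6 neutrophil markers, the summed level was 0.581 to 0.653 in control-primed and 0.827 to 1.01 in knockdown-primed cells. Of 5 tested, 2 were called higher and none lower, beside 3.15% and 3.21% of all genes. Mpo and Ly6g, a granule enzyme and a surface antigen, rose by 0.84 and 0.70. Camp (-0.49), Elane (0.39) and Cxcr2 (0.33) did not pass, and Ltf was well above background on no array. Ly6g was well above background on every control-primed array and on no RAW264.7 array. Neither Mpo nor Ly6g passed after quantile normalization or with no filter on dim probes, and Ly6g did not with a replicate block. The part of the neutrophil markers in the changes of Slpi and Serpinb2 was not tested.

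The changes of 4 of the 6 genes differed between the lines by an interaction contrast over all 12 arrays, RAW264.7 change minus CT-26 change, and all 4 were larger in RAW264.7 cells. Over 27072 genes this contrast was called for 31.4%, higher for 7.43% and lower for 23.9%. It was 4.94 ± 0.74 for Serpinb2 (SE, limma adjusted p = 0.00108), 2.80 ± 0.49 for Plat (limma adjusted p = 0.00288) and 2.02 ± 0.41 for Slpi (limma adjusted p = 0.0057). It was 1.01 ± 0.33 for Plaur (limma adjusted p = 0.0371), and -0.76 ± 0.33 for Serpine2 did not pass (limma adjusted p = 0.0965). With the slide as a block Plaur (0.49, limma adjusted p = 0.315) and Slpi (1.40, limma adjusted p = 0.0515) lost their calls, and the call of Plaur was also lost in 11 of 12 fits that left out 1 array. The Plau contrast of 0.83 rests on CT-26 signals that were not well above background.

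The control groups of the lines differed in 5 of the 6 genes, 2 of them higher in RAW264.7 and 3 higher in CT-26 cells, and those 5 did not overlap. Of all genes tested in this comparison 72.2% were called, 45.7% higher and 26.5% lower in RAW264.7 cells, and 74.6% did not overlap (47.4% higher, 27.2% lower). Control RAW264.7 cells had at least 123-fold more Plau signal than control-primed CT-26 cells and 2.55 ± 0.29 more Slpi on the log2 scale (SE, limma adjusted p = 5.38e-06). Control-primed CT-26 cells had the higher Plat, a RAW264.7 minus CT-26 difference of -6.65 ± 0.34 (SE, limma adjusted p = 3.33e-09), with RAW264.7 signal well above background on 1 of 3 arrays. They also had the higher Plaur, by the same difference of -1.04 ± 0.23 (limma adjusted p = 0.00151). Without slide 1 the Plaur difference was -0.52 (limma adjusted p = 0.0548). Serpinb2 was well above background on all 3 control-primed CT-26 arrays and on none of the RAW264.7 control arrays (limma adjusted p = 0.00274), and the lowest detectable signals of the RAW264.7 arrays allow no fold. After normexp the Serpinb2 difference was -0.25 (limma adjusted p = 0.50), so that call did not hold. Serpine2 did not pass the test (0.14 ± 0.23, limma adjusted p = 0.596), with a 95% interval of -0.37 to 0.65. Slide and cell line cannot be told apart in this comparison.

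Ordered by group mean, Plau ran from both CT-26 groups, which overlapped, to RAW264.7 control (0.27 ± 0.34, SD, n = 3) and knockdown cells. Plat ran from RAW264.7 control (-5.61 ± 0.96) through RAW264.7 knockdown (-2.27 ± 0.09) to control-primed (1.04 ± 0.13) and knockdown-primed CT-26 cells (1.58 ± 0.07), with no neighbours overlapping. Plaur was lowest in RAW264.7 control cells (2.09 ± 0.53) and highest, with overlapping arrays, in knockdown RAW264.7 (3.64 ± 0.14) and knockdown-primed CT-26 cells (3.67 ± 0.13). Serpinb2 ran from control-primed (-5.44 ± 0.18) through knockdown-primed CT-26 cells (-4.39 ± 0.10) to RAW264.7 knockdown (-1.57 ± 0.90), and these neighbours did not overlap. RAW264.7 control cells, well above background on no array, have no place in that order against control-primed CT-26 cells. Slpi in knockdown-primed CT-26 cells (0.02 ± 0.37) overlapped with that in RAW264.7 control cells (0.30 ± 0.58), while knockdown RAW264.7 cells were far above both (4.59 ± 0.12). For Serpine2 the knockdown RAW264.7 cells were lowest (-3.52 ± 0.18), and the other groups overlapped in turn.

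The rest of the plasminogen and fibrinolysis genes moved in both directions in RAW264.7 cells. Of 29 listed genes 20 were tested, 4 rose, 3 fell and 13 did not pass, beside 22.8% of all genes called in either direction. Their median change was -0.02, beside -0.30 for all genes. With no filter on dim probes 28 were tested, 2 rose and 1 fell, and the median change was -0.31. Thrombomodulin (Thbd), a cofactor for protein C activation, read -7.05, -6.93 and -6.00 in control cells, with 1 array well above background, and 0.85, 1.19 and 1.91 in knockdown cells. Its control arrays were all far below the knockdown arrays, a change of 7.98 ± 0.35 (SE, limma adjusted p = 5.62e-06). Neuroserpin (Serpini1), a serpin that inhibits Plat, rose by 4.30 from control signal well above background on 1 of 3 arrays. The collagen receptor gene Mrc2, whose product associates with Plaur, rose by 1.27 from 1 of 3 control arrays well above background, and the integrin gene Itgav rose by 1.20. Matriptase (St14) fell by 0.95, the integrin gene Itgb5 fell by 0.68 and Hgfac, which encodes a protease activating hepatocyte growth factor, fell by 0.65. Blocked by slide, 2 of the 20 rose and none fell, Thbd (7.32) and Serpini1 (3.92).

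Plasminogen itself (Plg) had a change of -0.10 in RAW264.7 and 0.21 in CT-26 cells, neither past the test, at dim signals. Anxa2 and S100a10, which encode the subunits of a plasminogen-binding surface complex, had changes of -0.28 and -0.27 in RAW264.7 and 0.30 and 0.57 in CT-26 cells, none past the test. The clearance receptor gene Lrp1 (0.25 and -0.70) and the serpin gene Serpinb6a (0.18 and 0.45) did not pass in either line. In CT-26 cells none of the 17 genes of this list that were tested changed by limma at an adjusted p under 0.05, beside 6.36% of all genes, and the median change was 0.07.

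**Figure D3:**
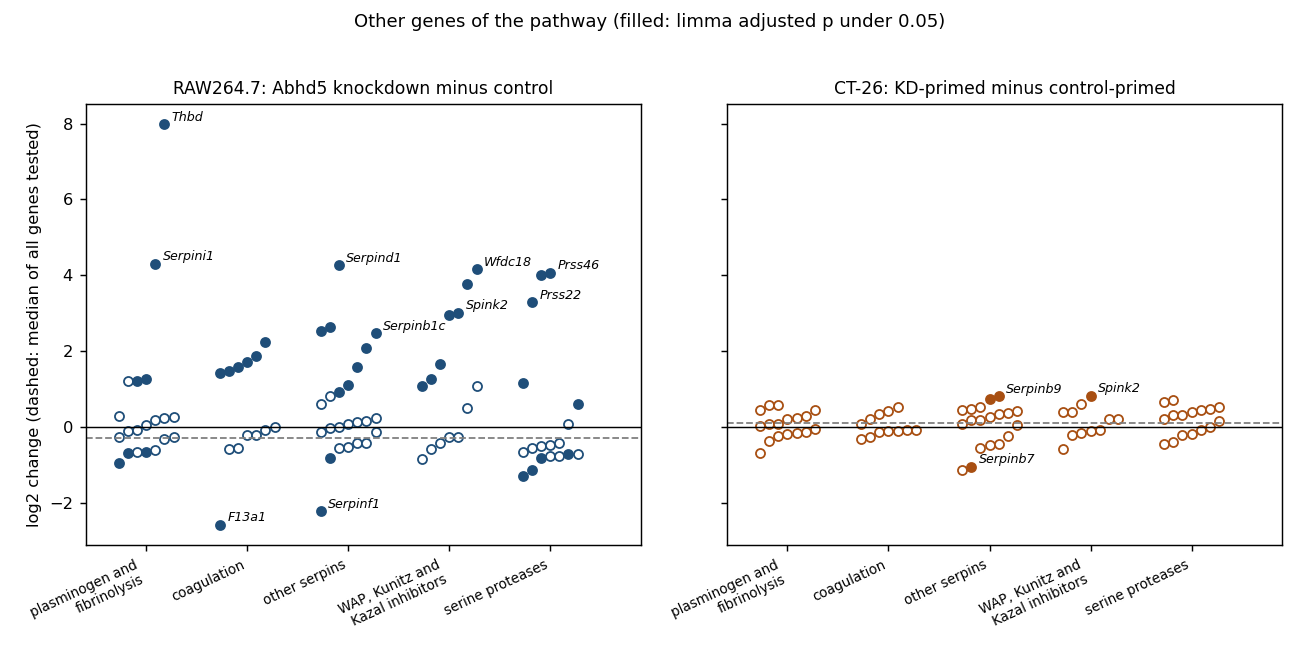
Change of every tested gene of the 5 surrounding gene lists (y axis, log2 change; x axis, list) in RAW264.7 cells and in CT-26 cells, filled where limma's adjusted p was under 0.05, with a dashed line at the median of all genes tested. In RAW264.7 cells filled points lie on both sides of 0 in 4 lists and above it in the WAP, Kunitz and Kazal inhibitors, whereas CT-26 cells have 4 filled points.

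Slpi belongs to the small secreted inhibitors, and in knockdown RAW264.7 cells 7 of 14 tested genes of their WAP, Kunitz and Kazal families rose and none fell, with a median change of 1.07, beside 7.94% of all genes higher and 14.9% lower. With no filter on dim probes 21 genes of these families were tested, 6 rose and 1 fell, and the median change was -0.17. Wfdc17, Wfdc21 and Wfdc18, which encode WAP-domain proteins, rose by 3.76, 2.94 and 4.15, and the Kazal inhibitor gene Spink2 rose by 3.003. The control signals of Wfdc18 and Spink2 were well above background on 1 of 3 arrays. With the slide as a block 4 rose and none fell, and after normexp 6 rose and 3 fell, with a median change of 0.39. In CT-26 cells 1 of 11 rose, Spink2 by 0.82 (limma adjusted p = 0.0361), and it did not pass after quantile normalization, with a replicate block or with no filter.

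Among the other serpins 8 of 24 tested rose and 2 fell in RAW264.7 cells, with a median change of 0.14, beside 7.94% of all genes higher and 14.9% lower. With no filter on dim probes 35 were tested, 4 rose and 1 fell, and the median change was -0.0032. The leukocyte elastase inhibitor genes Serpinb1c, Serpinb1b and Serpinb1a rose by 2.47, 2.64 and 1.09; they are close relatives, and a probe may not separate them. Serpinb1b was well above background on 1 of 3 control arrays. Heparin cofactor 2 (Serpind1) rose by at least 5.18-fold, with no control array well above background. Serpinf1, the gene of pigment epithelium-derived factor, fell by 2.23 and Serpina9 fell by 0.83. Blocked by slide, 6 rose and 1 fell, Serpinf1, while Serpina9 did not pass. In CT-26 cells Serpinb9, an inhibitor of granzyme B, rose by 0.81 and Serpina3f rose by 0.73, and both calls were lost with a replicate block. Serpinb7 passed from well above background on all control-primed arrays to none of the knockdown-primed arrays, at least 1.17-fold lower (limma adjusted p = 0.0161), but with a change of -0.03 after normexp (limma adjusted p = 0.92). None of these 3 passed with no filter on dim probes.

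Of 13 tested coagulation genes 6 rose and 1 fell in RAW264.7 cells, with a median change of 0.01, beside 7.94% of all genes higher and 14.9% lower. With no filter on dim probes 22 were tested, 5 rose and none fell, and the median change was -0.13. Tissue factor (F3), the cellular trigger of coagulation, rose by 1.87, its inhibitor Tfpi rose by 1.59, and the protein C receptor gene Procr and the protein S gene Pros1 rose by 1.48 and 1.42. The transglutaminase subunit gene F13a1 fell by 2.58. With the slide as a block 6 rose and none fell, F13a1 having a change of -0.75. After normexp 3 rose and 2 fell, and Tfpi, with 1 of 3 control arrays well above background, had a change of 0.35. None of 12 tested changed in CT-26 cells by limma at an adjusted p under 0.05.

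The serine proteases outside the pathway showed no common direction in RAW264.7 cells, with 5 of 18 risen, 4 fallen and a median change of -0.53, beside 7.94% of all genes higher and 14.9% lower. With no filter on dim probes 31 were tested, 3 rose and 2 fell, and the median change was -0.55. Prss46 (1 of 3 control arrays well above background), Prss22 and the matrix protease gene Htra1 rose by 4.06, 3.29 and 1.15. Prss35 rose by at least 4.17-fold, with no control array well above background. The kallikrein gene Klk8, the proprotein convertase gene Pcsk5, prostasin (Prss8) and the mitochondrial protease gene Htra2 fell by 1.30, 1.13, 0.82 and 0.73. With the slide as a block Prss46 and Prss35 rose and Klk8 fell, 3 of the 18. After normexp 5 rose and 9 fell. None of 16 tested changed in CT-26 cells by limma at an adjusted p under 0.05.

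Genes whose levels ran most like those of the members over the 12 arrays were found by Pearson's r among 15536 genes, as a description; the arrays share lines, slides and groups. For Plau these were Gstt1 (0.999), Tnfaip8l2 (0.998) and Lpxn (0.998), a pattern of high signal in RAW264.7 and low signal in CT-26 cells. For Plat they were Prkar1b (0.996), Dcbld1 (0.993) and Ttc30b (0.993), with the opposite order of lines. For Plaur they were Spink2 (0.959), Dnajc22 (0.950) and Upp1 (0.948). Serpinb2 was most like the chemokine genes Cxcl3 (0.967) and Ccl7 (0.956) and then Slc24a5 (0.952). Slpi was most like Cela1 (0.983), Sirpb1a (0.978) and the acute-phase gene Saa3 (0.978). Serpine2, whose spread was small, was most like Zfp619 (0.943), Nampt (0.943) and Fbxw25 (0.940).

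Saa3, among the genes most like Slpi, had changes of 4.04 in RAW264.7 and 3.61 in CT-26 cells beside the 4.30 and 2.27 of Slpi, and passed the test in both lines by limma. Among the 6 genes themselves, r over the 12 arrays ran from -0.85 for Plau and Plat to 0.79 for Plau and Slpi.

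**Figure D4:**
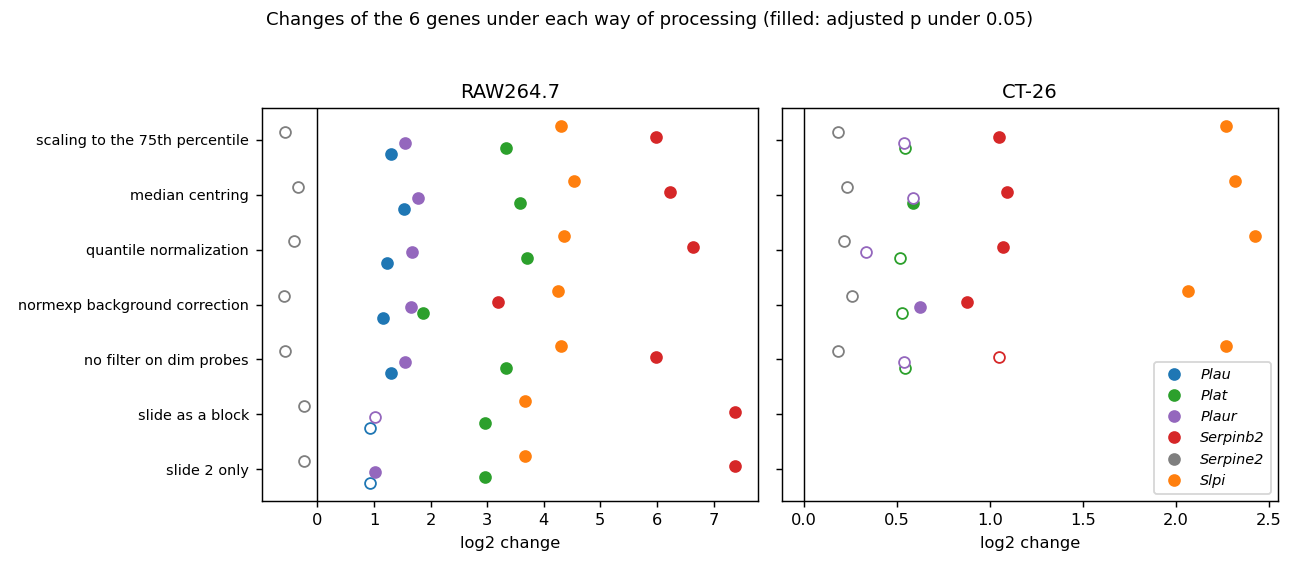
Change of each gene (x axis, log2) in RAW264.7 cells and CT-26 cells under each way of processing (y axis), filled where limma's adjusted p was under 0.05. In RAW264.7 cells Plat, Serpinb2 and Slpi are filled in every line of the plot, with Serpinb2 running from 3.19 to 7.38; in CT-26 cells Slpi alone is.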

How the data were processed

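Total RNA was amplified, labelled with Cy3 and hybridised to single-colour Agilent mouse arrays, per the labels' protocols, and read with Agilent Feature Extraction 10.7.3.1, per the submitters' processing notes. The deposited scanner files hold each spot's intensity on a linear scale, corrected for background within the array, per the file headers. The authors' deposited value table holds log2 values for RAW264.7, which matched their own arrays (6 of 6), and linear intensity values for CT-26, of which 5 of 6 matched another replicate. It was used as an alternative for RAW264.7 only. Its column medians were -3.81, -3.53, -3.90, -4.02, -3.94 and -3.93 for RAW264.7 and 272.6, 276.02, 274.4, 226.1, 131.7 and 174 for CT-26. Its scale was read from this match, and the labels state no method.

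Control spots and outlier spots (172 to 272 of 59305 per array) were left out, no spot was saturated, and log2 processed signals had the array's 75th percentile subtracted. Names came from accessions through a RefSeq table (GRCm38.p6) for 26762 probes, from symbols for 3819 and from the array for 25100. Of 35080 names, 27072 had a probe that the software called well above background on each array of at least 1 group, and the brightest such probe represented the gene. Testing required that call on every array of 1 or both groups compared. Fits used limma 3.58.1 in R 4.3.3 (lmFit, eBayes, two-sided, Benjamini-Hochberg over all genes tested, threshold 0.05). They were also run on simulated data with independent noise, no slide effect and no detection floor, which cannot speak to slides or dim spots. The RAW264.7 and CT-26 fits used 6 arrays each, and the interaction and control-line contrasts used 12. The number of arrays limits the precision.

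Slides were read from the files, each with a scan of its own. The labels number replicates alike in every group. Deviations of same-numbered arrays correlated at -0.01, 0.01 and -0.08 in RAW264.7 and -0.10, -0.17 and -0.03 in CT-26 cells, so the numbers were not taken to pair the samples.

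The 6 genes, the gene lists and the markers were chosen with earlier results of these data known. Beside the 6 genes, the text names Abhd5; Plg, Serpinb6a, Anxa2, S100a10 and Lrp1; up to 4 genes per list, line and direction with the smallest p among those called; and the 3 genes most like each of the 6. Another gene that the rule names is not reported here. Genes named from the marker lists, Thbd's arrays and the changes of Saa3 were added after their values were seen. Alternatives were median centring, quantile normalization, normexp background correction (offset 50), no filter on dim probes, the mean over probes, the value table, a replicate block, the slide as a block, slide 2 alone and leaving out each array. No scaling between arrays and leaving out slide 1 were added after the data were seen.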

Additional observations from a re-analysis of the deposited data

Results flagged for a closer look

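The difference between the RAW264.7 and the CT-26 change passed the test of the difference itself for 4 of the 6 genes. It was 4.94 on the log2 scale for Serpinb2, 2.80 for Plat, 2.02 for Slpi and 1.01 for Plaur. Control signals of Serpinb2 in RAW264.7 cells were not well above background on any of the 3 arrays, nor were those of Plat on 2 of 3. The sizes for these genes therefore rest on dim spots. With the slide as a block the values were 6.34, 2.41, 1.40 and 0.49, and those of Slpi and Plaur no longer passed. In that fit the RAW264.7 changes are set against control replicate 3 alone, where Serpinb2 was not well above background.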

How the results depend on the processing

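In RAW264.7 cells Plat, Serpinb2 and Slpi kept their direction and call under every alternative run, from 1.87 to 3.88, 3.19 to 7.38 and 3.68 to 4.84, and the call was kept for all 5 called genes when any 1 array was left out. Leaving out 1 array gave 1.14 to 1.48 for Plau, 1.27 to 1.80 for Plaur, 2.79 to 3.70 for Plat, -0.75 to -0.28 for Serpine2, 5.29 to 6.43 for Serpinb2 and 4.03 to 4.61 for Slpi. The slide as a block took Plau to 0.92 and Plaur to 1.03, neither called, and slide 2 alone took Plau to 0.92, not called; that fit has 1 control array, whose spread is taken to equal that of the knockdown arrays. In CT-26 cells Plat passed after median centring (0.59, limma adjusted p = 0.047) and Plaur after normexp (0.62, limma adjusted p = 0.0429). Serpinb2 did not pass without a filter (1.05, limma adjusted p = 0.0874). Without scaling between arrays the changes were -0.0850 for Plaur, -0.0803 for Plat and -0.44 for Serpine2, all reversed, and 0.42 for Serpinb2, not called. Leaving out 1 array gave 0.96 to 1.14 for Serpinb2. Between control lines Serpine2 reversed to -0.20 without slide 1 and ran from -0.15 (without RAW264.7 control replicate 2) to 0.31 when 1 array was left out.

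The RAW264.7 count of 5802 genes became 3762 with median centring, 2643 without a filter, 1166 with the slide as a block, 1777 on slide 2 alone and 1670 to 7392 without 1 array. The CT-26 count of 1590 became 41 without a filter and 82 to 3010 without 1 array, the lowest without control-primed replicate 3 and the highest without knockdown-primed replicate 1. The interaction count of 8493 became 2379 with the slide as a block, 3746 without slide 1 and 5095 to 10174 without 1 array. The causes were not tested. The replicate number as a block gave 901 CT-26 calls and changed no call of the 6 genes in either line. Dim spots limit Plau in CT-26 and Plat and Serpinb2 in control RAW264.7 cells.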
